A study of Mus musculus with 18 samples.

Results

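mmu-miR-720 is a small RNA that was on the mouse miRNA array as a miRNA and is now regarded as a fragment of a transfer RNA. It was chosen from 576 names on the array for its small unadjusted change at the lowest dose of benzo(a)pyrene (BaP), a combustion-derived mutagenic carcinogen. The array carried 2 probes for it among 1712 non-control probes. The contrast used for the choice is therefore given without a test.

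The RNA came from the liver of male Muta™Mouse, transgenic strain 40.6, which carries a bacterial lacZ transgene for scoring mutations. The mice were 25 weeks old. Each was gavaged daily over 28 days, either with olive oil alone (controls) or with BaP in that oil at a dose of 25, 50 or 75 mg/kg/day. Livers were taken 3 days after the last dose, and 1 array per animal was analysed for 3 controls and 5 animals at each dose. The study describes 5 dosed controls and the removal of arrays at a quality check, and the deposited arrays hold 3 controls.

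A miRNA is cut from a hairpin precursor and guides a silencing complex to matching messenger RNAs. A tRNA fragment instead comes from cleavage of a tRNA, the adaptor that carries an amino acid to the ribosome, and such cleavage is known to occur in stressed cells. miR-720 matches the 3′ portion of a threonine tRNA, and a threonine tRNA is abundant in every cell that makes protein. Whether the probes were bound by the short fragment or by longer RNA with the same end was not tested here.

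The liver label was checked against the hepatocyte miRNAs. miR-122 and miR-192 were present on all 18 arrays and miR-194 on 15, and none of the 3 passed the test at any tested contrast with the controls. The arrays lay on 3 slides. Slide 1 held control 1 with animals 1 and 2 of each dose. Slide 2 held animals 3 and 4 of the 50 and 75 mg/kg/day groups and no control. Slide 3 held controls 2 and 3, the remaining 3 animals of the 25 mg/kg/day group and animal 5 of each higher dose. The animal numbers here are names given in deposit order. Array medians were 39.5 to 50.5 on slide 1, 63 to 69 on slide 2 and 58 to 64 on slide 3 (signal units before normalisation), and 5.72% to 16.5% of spots per array were well above background.

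miR-720 was measured on every array. All 10 spots of each probe were well above background on all 18 arrays, and none was saturated. The median signal of the brighter probe before normalisation was 8406, 8751 and 6155 in the controls. It was 8846, 6616, 6592, 2987 and 3574 at 25 mg/kg/day. At 50 mg/kg/day it was 3593, 6757, 10867, 9040 and 9883, and at 75 mg/kg/day it was 4692, 4534, 8070, 7573 and 9335. The dose groups overlapped throughout, and the highest array was 3.64-fold above the lowest. For the dimmer probe this ratio was 3.61. This spread was partly shared with other RNAs. The 3 arrays lowest for miR-720 (animals 4 and 5 at 25 mg/kg/day and animal 1 at 50 mg/kg/day) were also the 3 lowest for the mean of the 110 other present probes. The SD over arrays was 0.54 log2 for miR-720 and 0.30 for that mean. Control 2 was the highest array for that mean but ranked 12 from the lowest for miR-720.

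**Figure D1:**
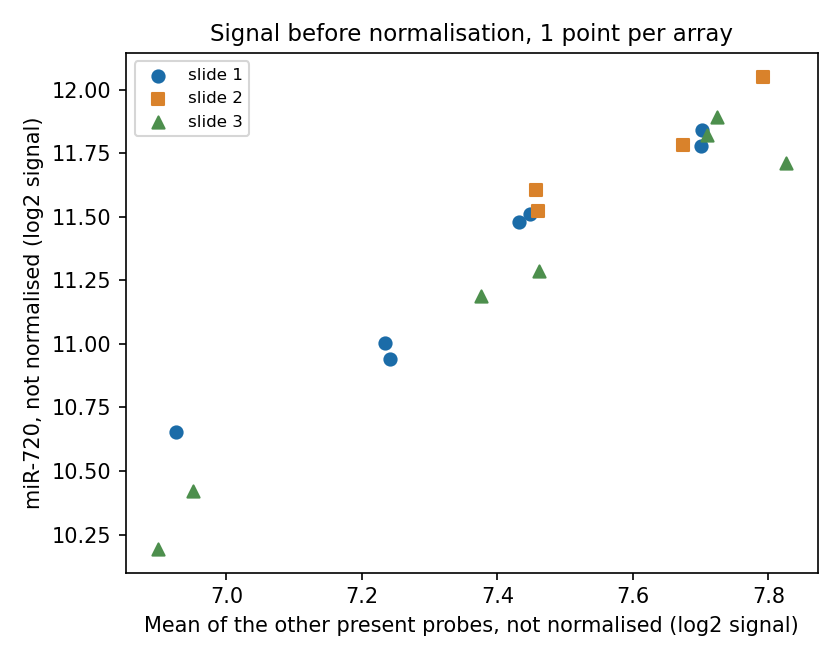
The y axis gives miR-720 (mean log2 signal of both probes) and the x axis the mean log2 signal of the 110 other present probes, both before normalisation, with 1 point per array and colours for slides. miR-720 broadly followed the brightness of the other probes, from 10.19 on its dimmest array to 12.05 on its brightest.

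Cyclic loess, which fits signal-dependent curves between arrays, reduced the SD of miR-720 over the arrays from 0.54 to 0.16 (log2). Centring arrays on the other present miRNAs gave an SD of 0.26. Centring them on their medians gave 0.59, so that scaling did not reduce the spread. The spots of miR-720 were a large part of the bright spots to which the upper end of the loess curves was fitted. Among 80 spots at least as bright as its dimmer probe, 20 (25%) were its own. Among 30 spots at least as bright as its brighter probe, 10 (33.3%) were its own.

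After normalisation, miR-720 (mean log2 signal of both probes) was 11.20, 10.95 and 11.19 in the controls. It was 11.39, 11.42, 11.07, 11.36 and 11.23 at 25 mg/kg/day. It was 11.56, 11.42, 11.51, 11.42 and 11.29 at 50 mg/kg/day, and 11.33, 11.34, 11.53, 11.38 and 11.22 at 75 mg/kg/day. Every animal of both higher dose groups lay above every control, while at 25 mg/kg/day 4 of 5 animals did. Such an upward separation of all 5 animals from all controls was seen for 0% of the 69 tested names at 25 mg/kg/day, 4.35% at 50 mg/kg/day and 4.35% at 75 mg/kg/day. The separation of miR-720 was absent from the log2 values deposited by the authors. There control 3, at 11.73, lay above every animal at 50 and 75 mg/kg/day (highest 11.65 and 11.57). In bulk liver RNA, a change in the share of cells that hold an RNA and a change in its amount per cell cannot be told apart.

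The group means were 11.11 ± 0.14 (SD, n = 3) in the controls, 11.29 ± 0.14 (n = 5) at 25, 11.44 ± 0.10 (n = 5) at 50 and 11.36 ± 0.11 (n = 5) at 75 mg/kg/day. The level thus had no dose order, with the highest mean at the middle dose. The 25 and 75 mg/kg/day groups lay within each other's SD, as did the 75 and 50 mg/kg/day groups.

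**Figure D2:**
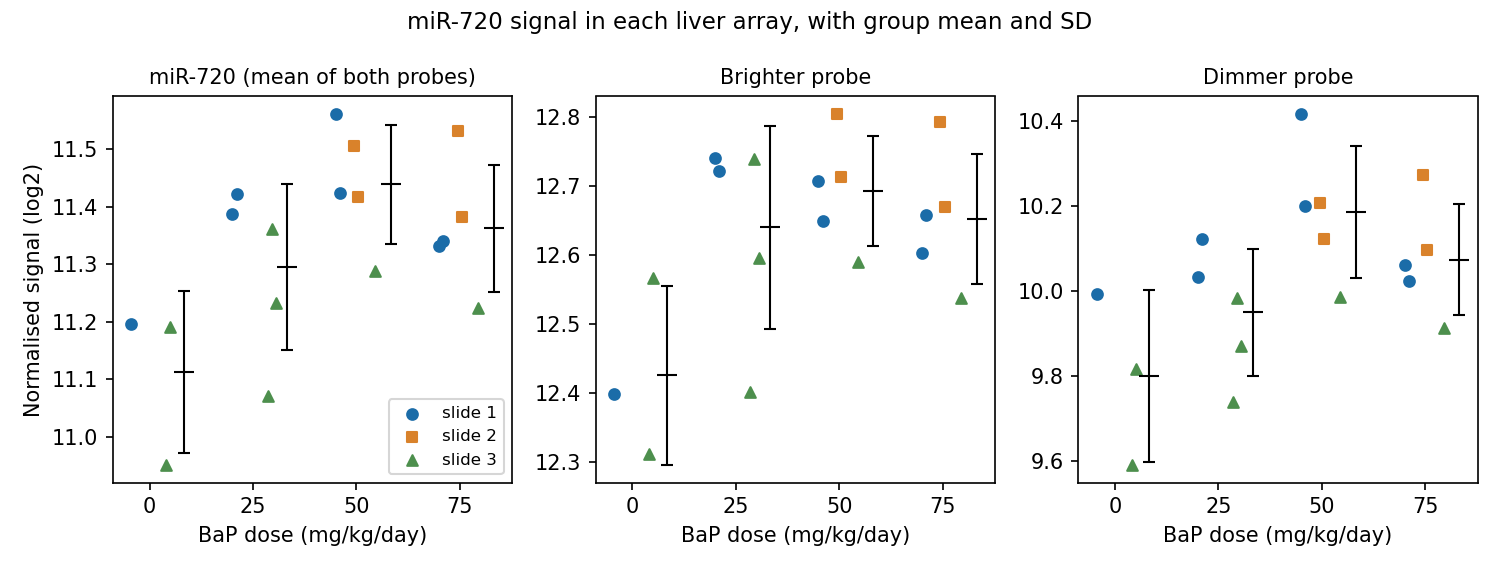
Normalised log2 signal of miR-720 against BaP dose (mg/kg/day) for the mean of both probes and for each probe, with 1 point per animal, shifted sideways for visibility, colours for slides, and bars for group mean and SD. The animals at 50 and 75 mg/kg/day lay above the 3 controls in the mean of both probes, and in that mean the slide 3 animals of each dose lay below the animals of that dose on the other slides.

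With slide as a block in limma, none of the tested differences of miR-720 between doses passed. miR-720 was 0.23 ± 0.07 (SE) log2 higher at 50 mg/kg/day than in controls, a ratio of 1.18, and limma's adjusted P was 0.0880. The 95% interval of that difference, not adjusted for the 69 tests, ran from 0.08 to 0.39. The difference was -0.25 ± 0.45 (SE) when arrays were centred on their medians instead, where the median of all 69 names also shifted to -0.25. It was 0.01 ± 0.18 (SE) when arrays were centred on the other present miRNAs (limma, adjusted P = 0.993). It was 0.14 with quantile normalisation and 0.13 with normexp and quantile normalisation. Leaving the miR-720 spots out of the loess curves, a setting chosen after seeing the data, gave 0.30 (limma, adjusted P = 0.115). In this contrast 2 of 69 names (2.9%) passed an adjusted P of 0.05, and miR-720 had the rank 4 by P. Without control 3 the difference was 0.30 and passed (limma, adjusted P = 0.0251), and without animal 3 of the 25 mg/kg/day group it was 0.24 and passed (adjusted P = 0.0354).

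At 75 mg/kg/day the difference from controls was 0.16 ± 0.07 (SE) log2, a ratio of 1.12, with an adjusted P of 0.184 (limma). Its 95% interval ran from 0.002 to 0.31. In this contrast 4 of 69 names (5.8%) passed, and miR-720 had the rank 18 by P. The sign of the difference also depended on scaling. It was -0.34 ± 0.45 (SE) after centring on array medians (limma, adjusted P = 0.687), where the median of all names was -0.25. That scaling left the SD of miR-720 over arrays at 0.59 log2, above the 0.54 before normalisation. After centring on the other present miRNAs the difference from controls was -0.10 ± 0.18 (SE, limma adjusted P = 0.783). Quantile normalisation gave 0.07, and normexp with quantile normalisation 0.06. Leaving the miR-720 spots out of the loess curves gave 0.17 (limma, adjusted P = 0.300).

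Between the upper doses the difference was small. At 75 mg/kg/day miR-720 was -0.08 ± 0.06 (SE) log2 relative to 50 mg/kg/day, with a 95% interval from -0.20 to 0.05 and an adjusted P of 0.936 (limma). In this contrast 1 of 69 names (1.45%) passed. By slide the difference was -0.16 on slide 1, -0.004 on slide 2 and -0.06 on slide 3.

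The contrast that chose miR-720 gave a value of similar size. At 25 mg/kg/day it was 0.17 ± 0.07 (SE) log2 above controls. Its P is not given, because the choice used it. Of the 69 names, 7 (10.1%) had an unadjusted P under 0.05 by limma. In the order by that P, miR-34a, a p53 target, stood just ahead of miR-720. Just behind miR-720 was miR-148a, which differed by -0.15. The value for 25 mg/kg/day became -0.47 ± 0.41 (SE) after centring on array medians and -0.17 ± 0.17 (SE) after centring on the other present miRNAs. The 50 and 75 mg/kg/day groups differed from the 25 mg/kg/day group by 0.06 ± 0.06 and -0.01 ± 0.06 (SE) log2, so the 3 doses stood close together. All 3 contrasts with controls used the same 3 control arrays. The choice at 25 mg/kg/day could therefore also favour positive differences from controls at 50 and 75 mg/kg/day.

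**Figure D3:**
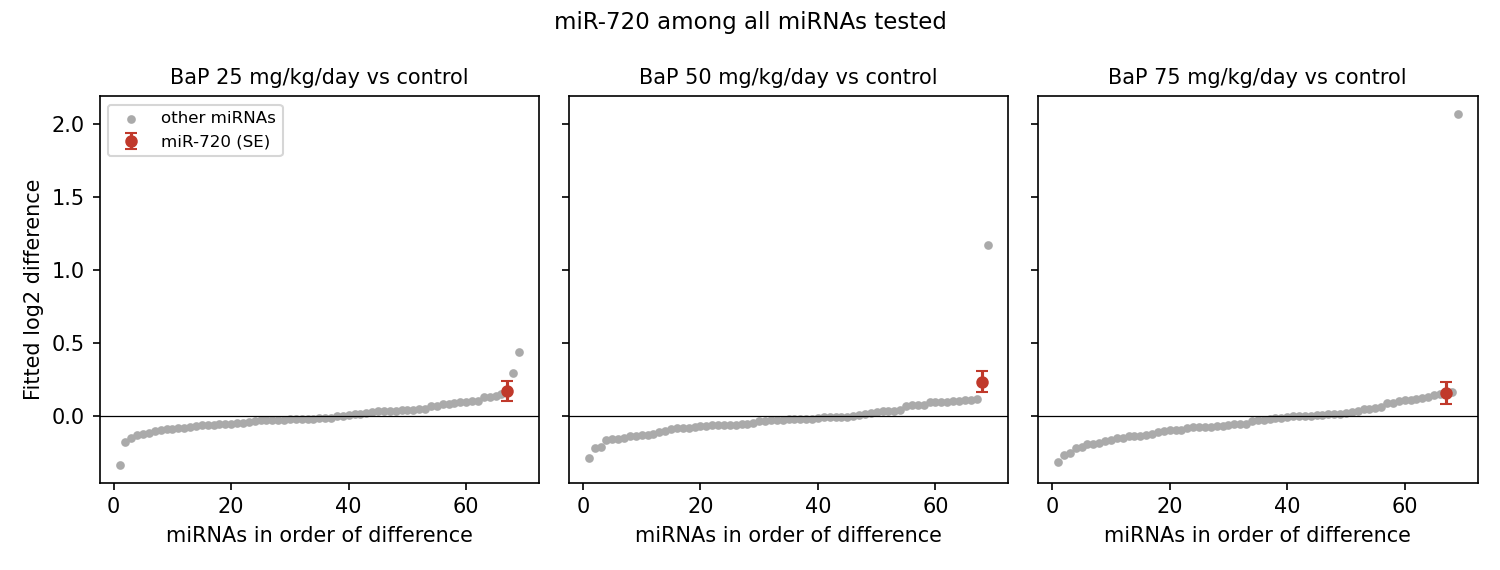
Fitted log2 differences of the 69 tested names from controls in order of size for 25, 50 and 75 mg/kg/day, with miR-720 in red and its SE. miR-720 lay near the upper end, at 0.17, 0.23 and 0.16, far below the miR-34a values of 1.17 and 2.07 at 50 and 75 mg/kg/day.

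**Figure D4:**
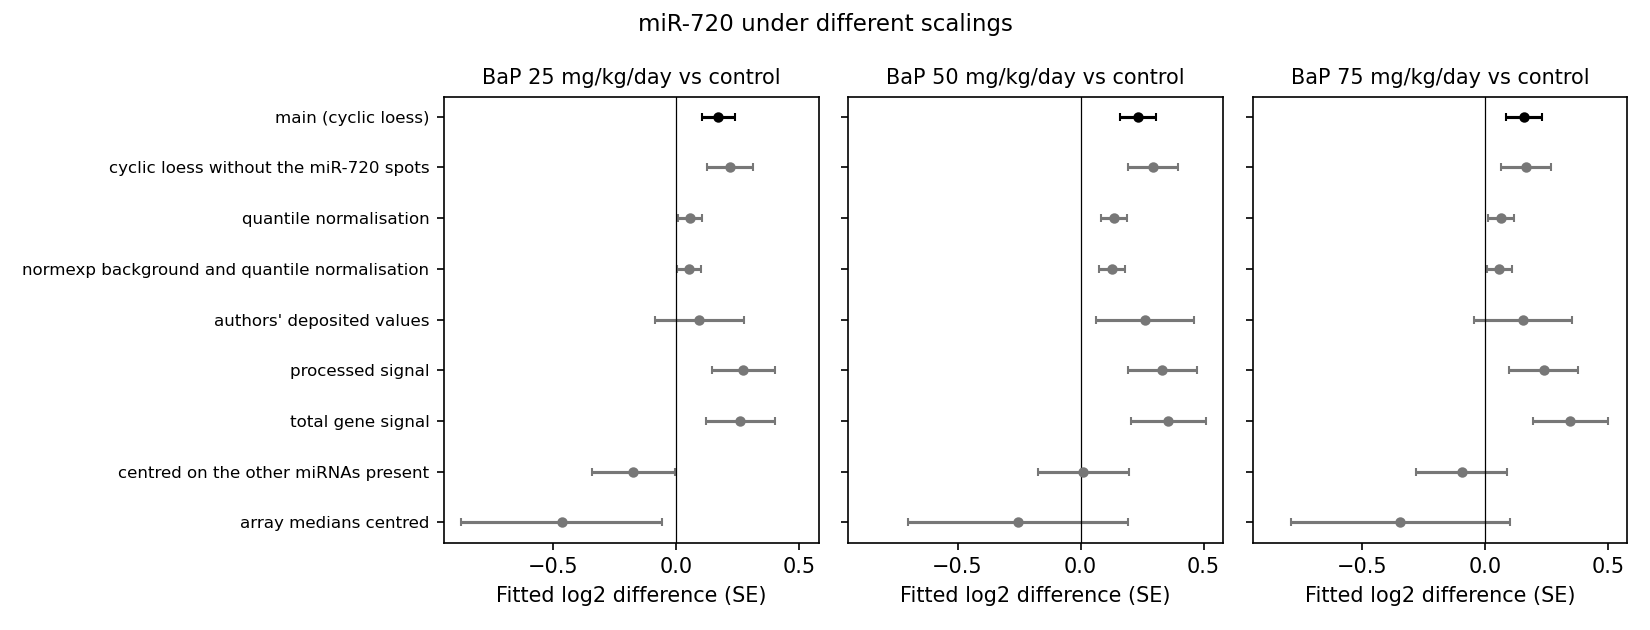
Fitted log2 difference of miR-720 from controls at 25, 50 and 75 mg/kg/day with its SE, under 9 ways of scaling the arrays. At 50 mg/kg/day the values ran from -0.25 after centring on array medians to 0.36 with the total gene signal, and at 75 mg/kg/day from -0.34 to 0.35.

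The same comparison was made by array permutation. The controls are those by which miR-720 was chosen, so P-values against them were not independent of the choice. Ignoring slide, the exact two-sided permutation P was 0.0179 for 50 and for 75 mg/kg/day against controls (0.0268 adjusted over 3 contrasts), the smallest that 56 arrangements allow. Within slides, where 1 or 2 controls remained per slide, the exact permutation P was 0.222 and 0.333 (both 0.333 adjusted), and the smallest that 9 arrangements allow was 0.111. The exact permutation P for 75 against 50 mg/kg/day was 0.294 ignoring slide and 0.167 within slides. Slide was unevenly spread over the groups, with 2 of 3 controls but 1 of 5 animals at the upper doses on slide 3.

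Of the animals that shared a slide with a control, 4 of 5 in the 25 mg/kg/day group and all 3 in each higher group lay above the controls of their slide. Such an upward separation of all of them was seen for 4.35% of names at 25, 11.6% at 50 and 17.4% at 75 mg/kg/day. The differences were 0.21 on slide 1 and 0.15 on slide 3 at 25 mg/kg/day, 0.30 and 0.22 at 50 mg/kg/day, and 0.14 and 0.15 at 75 mg/kg/day. These rest on the same 3 control arrays, 1 on slide 1 and 2 on slide 3, and the 25 mg/kg/day values belong to the contrast that chose miR-720.

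miR-720 also differed between slides, in a direction that depended on the scaling. With dose in the model, the difference of slide 3 from slide 1 was -0.16 ± 0.05 (SE) log2 (limma, adjusted P = 0.0119). That was common on these arrays, since 47 of 69 names (68.1%) differed between those slides, and 19 (27.5%) were lower. In the deposited values the same contrast was 0.55 higher (limma, adjusted P = 0.00309). With the miR-720 spots left out of the loess curves it was -0.26 (limma, adjusted P = 0.00471). Slide 2 differed from slide 1 by 0.04 ± 0.06 (SE) log2 (adjusted P = 0.562), where 37 names (53.6%) passed. The SD of log2 signal over the spots of a probe was highest on slide 2, at 0.054 to 0.135 for the brighter probe, against 0.026 to 0.057 on slide 1 and 0.033 to 0.051 on slide 3.

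With cyclic loess both probes gave positive differences at the upper doses, and neither passed. For the brighter probe the controls were 12.40, 12.31 and 12.57, the animals at 50 mg/kg/day were 12.71, 12.65, 12.80, 12.71 and 12.59, and those at 75 mg/kg/day were 12.60, 12.66, 12.79, 12.67 and 12.54. Animal 5 at 75 mg/kg/day lay below control 3, and all 5 animals at 50 mg/kg/day lay above every control. The difference was 0.19 ± 0.08 (SE) log2 at 50 mg/kg/day (limma, adjusted P = 0.215) and 0.15 ± 0.08 at 75 mg/kg/day (adjusted P = 0.228).

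For the dimmer probe the controls were 9.99, 9.59 and 9.82, the animals at 50 mg/kg/day were 10.42, 10.20, 10.21, 10.12 and 9.99, and those at 75 mg/kg/day were 10.06, 10.02, 10.27, 10.10 and 9.91. Here 4 of 5 animals at each of these doses lay above every control. The difference was 0.28 ± 0.08 (SE) log2 at 50 mg/kg/day (limma, adjusted P = 0.0851) and 0.17 ± 0.08 at 75 mg/kg/day (adjusted P = 0.224).

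How far the probes differed from each other was examined after their values had been seen. Ignoring slide, the change in the brighter probe minus that in the dimmer was -0.12 log2 at 50 mg/kg/day (exact permutation P = 0.339, 0.455 adjusted over 4 contrasts) and -0.05 at 75 mg/kg/day (exact permutation P = 0.625). With slide in the fit it was -0.09 and -0.02, with exact permutation P within slides of 0.444 and 0.778 (the smallest that 9 arrangements allow was 0.111). Between slides 3 and 1 it was 0.17 log2 ignoring dose (exact permutation P = 0.00991, 0.0396 adjusted) and 0.15 with dose in the fit (exact permutation P within dose groups = 0.0148, 0.0593 adjusted), so it did not pass within dose groups. It also did not pass after quantile normalisation (0.09, adjusted P = 0.321 by the exact permutation test), with the miR-720 spots left out of the loess curves (0.05, adjusted P = 0.893), or in 10 of 18 fits that each left out 1 array. Those were the fits without control 1, 2 or 3, without animal 3, 4 or 5 of the 25 mg/kg/day group, without animal 1 or 2 of the 50 mg/kg/day group, or without animal 1 or 5 of the 75 mg/kg/day group, with values from 0.14 to 0.19 log2 (exact permutation, adjusted P from 0.0513 to 0.0932). With array medians centred, the probe difference between slides 3 and 1 was 0.33 and passed ignoring dose (exact permutation, adjusted P = 0.00233).

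The miRNAs whose normalised levels moved most like miR-720 were found over the 18 arrays after slide means were removed. The Pearson r was 0.59 for miR-345-5p, 0.56 for the viral-named probe mghv-miR-M1-2, 0.56 for miR-702, 0.51 for miR-193 and 0.49 for miR-33. Without the 2 arrays farthest from the median of miR-720 (controls 1 and 2) these were 0.39, 0.25, 0.37, 0.45 and 0.15. Most of these names were dim. Their mean signals before normalisation were 83.0, 71.9, 70.4, 266 and 79.5, against array medians of 39.5 to 69. All their kept probes were present on 17, 10, 9, 18 and 17 of the 18 arrays. The lowest r was -0.59 for miR-322, -0.56 for miR-25 and -0.55 for miR-99a, and the median over 68 other names was -0.05, with 29 above 0. These correlations are descriptions over arrays that share slides and the normalisation. With arrays centred on their medians, the highest r was 0.99 for miR-15a, then 0.98 for miR-107, miR-92a, miR-122 and miR-29a, so the list differed with the scaling. These names were not set apart, since most names had a high r with that scaling. The name at rank 34 of 68 still had 0.94, and the name at rank 65 had 0.68. For miR-345-5p, mghv-miR-M1-2, miR-702, miR-193 and miR-33 the r was then 0.87, -0.08, -0.29, 0.95 and 0.88.

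With cyclic loess and slide means removed over all arrays, miR-345-5p had the highest r with miR-720. It ranked 57 of 68 names with arrays centred on their medians. Without the 2 arrays farthest from the median of miR-720 its r was 0.39, below 0.45 for miR-193. The mature sequence of miR-345-5p, shown for reference with its seed in capitals (bases 2 to 8, RefSeq, GRCm38.p6, chr12:108836989-108837010, plus strand), is as follows.
mmu-miR-345-5p: gCUGACCCcuaguccagugcuu

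Few names from the same stretch of registry numbers as miR-720 were bright enough to test. Of 64 such names on the array, 29 (45.3%, against 26.6% of all 576 names) had no spot well above background on any array. The names tested were 3 including miR-720 (4.69%, against 12% of all names). The other two, miR-702 and miR-709, did not pass at any tested contrast between doses. miR-702 was 0.10 ± 0.08 (SE) log2 above controls at 50 mg/kg/day (limma, adjusted P = 0.496) and 0.12 ± 0.08 at 75 mg/kg/day (adjusted P = 0.335). miR-709 was -0.05 ± 0.12 (adjusted P = 0.910) and -0.13 ± 0.12 (adjusted P = 0.50) relative to controls.

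Blood cell miRNAs and stromal miRNAs were read beside these values. Of 9 blood cell names, 3 were tested (miR-144, miR-451 and miR-223) and none passed at 50 or 75 mg/kg/day, with median differences of -0.02 and -0.01 log2 against -0.02 and -0.03 over all names. The summed level of the 3 was 600 to 863 in the controls, 522 to 918 at 50 and 358 to 1200 at 75 mg/kg/day. Of 8 endothelial and stromal names, 7 were on the array and 2 were tested (miR-126-3p and miR-199a-3p). miR-199a-3p fell by 0.22 log2 at 75 mg/kg/day (limma, adjusted P = 0.00931), 1 of 3 names (4.35% of those tested) that passed as lower there. It was also below controls, without passing, with quantile normalisation (-0.21, limma adjusted P = 0.109), array medians centred (-0.35, adjusted P = 0.627), the processed signal (-0.45, adjusted P = 0.253), the total gene signal (-0.37, adjusted P = 0.321) and normexp (-0.19, adjusted P = 0.18). The same held without a slide term (adjusted P = 0.0612), centred on the other miRNAs (-0.10, adjusted P = 0.663), in the fit of only the groups compared (adjusted P = 0.0742) and without control 1 (-0.20, adjusted P = 0.107). The median difference of the pair was -0.12 at 50 and -0.14 at 75 mg/kg/day. The part of any of these cells in the miR-720 values was not tested.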

How the data were processed

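Liver RNA, extracted with a kit that enriches total RNA for small species, was labelled with cyanine 3-pCp and hybridised to 1-colour Agilent mouse miRNA arrays. Per the labels, the authors extracted spot intensity with Agilent Feature Extraction 10.7.3.1. The authors also deposited a table of log2 values per name. Set against raw log2 values it correlated at 0.991 or more on each array over 574 names. Its column medians were 5.74 to 5.76. The study's methods describe cyclic lowess of signal without background subtraction and the median over replicate probes. How the table was centred was not settled from its values. It served as an alternative.

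From the deposited intensity, the median spot signal without background subtraction was log2 transformed and normalised by cyclic loess over 11540 non-control spots. Spots marked as outliers were dropped, and replicate spots were summarised by the median. A probe was kept where at least 0.5 of its spots were well above background on at least 0.8 of the arrays of a group, which left 112 probes of 69 names. Names were the mean of their probes. limma 3.58.1 (R 4.3.3) fitted dose group and slide over all 18 arrays, with Benjamini-Hochberg adjustment over 69 names and a threshold of 0.05. limma stands in for the MAANOVA of the study. Slides were read from the scanner headers. The code was tested on simulated data.

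Named miRNAs were miR-720, the 5 most and the 3 least correlated with it, tested members of lists of neighbouring registry numbers, blood cells, and endothelium and stroma, and others where a result turned on them. The miRNA and the lists were chosen with earlier results of these data known. Alternatives were other normalisations, backgrounds, value sources, spot rules, filters, slide terms, single probes, only the groups compared, exact tests and leaving out each array. The number of arrays limits the precision, and P-values measure the spread between animals. Of the 69 tested names, 6 matched a mature sequence by exact name in the RefSeq table.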

Additional observations from a re-analysis of the deposited data

How the results depend on the processing

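No paired analysis was possible because animal numbers follow deposit order and pair nothing. With 3 controls, 1 of them on slide 1 and none on slide 2, precision is limited by the number of arrays. Where a value changed below, the cause was not tested.

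At 50 mg/kg/day the difference of miR-720 from controls (0.23) was positive and did not pass in 16 of 17 alternative limma fits. Among these it was 0.0113 centred on the other present miRNAs (limma, adjusted P = 0.993), 0.14 with quantile normalisation and 0.13 with normexp. The within-slide values had no test, and the exact test within slides could not reach 0.05. It was -0.25 with array medians centred (limma, adjusted P = 0.677) and 0.33 ignoring slide (exact permutation P = 0.0179). Leaving out 1 array at a time gave 0.18 to 0.30 (adjusted P 0.0251 to 0.458). It passed without control 3 (0.30, limma adjusted P = 0.0251) and without the third animal at 25 mg/kg/day (0.24, adjusted P = 0.0354).

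At 75 mg/kg/day the difference (0.16) was -0.34 with array medians centred, -0.10 centred on the other present miRNAs (a setting chosen after seeing the data), 0.0651 with quantile normalisation, 0.0586 with normexp and 0.25 ignoring slide (exact permutation P = 0.0179). Without each array it was 0.11 to 0.22. The difference of 75 from 50 mg/kg/day stayed negative in all 21 alternatives (-0.16 to -0.01) and without each array (-0.11 to -0.05). At 25 mg/kg/day the difference (0.17) was 0.0575 with quantile normalisation, 0.27 with the processed signal, 0.0528 with normexp, -0.47 with array medians centred and -0.17 centred on the other miRNAs. Without each array it was 0.12 to 0.24.

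The slide 3 minus slide 1 difference (-0.16) was -0.0217 with quantile normalisation, -0.58 with array medians centred, -0.0190 with normexp, -0.0864 by the brighter probe and -0.12 centred on the other miRNAs, none past the threshold. It was 0.0597 with the processed signal, 0.17 with the total gene signal and 0.55 in the deposited values. Without each array it was -0.18 to -0.13. The slide 2 minus slide 1 difference (0.04) was -0.00114 with quantile normalisation, -0.17 with array medians centred and -0.00404 by the dimmer probe, and it passed at 0.39 with the processed signal and 0.48 with the total gene signal. Without each array it was 0.001 to 0.07.

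The names past the threshold at 50 mg/kg/day numbered 2. They numbered 1 under quantile normalisation, array medians centred, processed signal, normexp, no presence filter, no slide term, slide as a random block, centring on the other miRNAs and only the groups compared, 4 with the total gene signal and 0 of 42 with probes present on all arrays. Without each array they numbered 1 to 4. At 75 mg/kg/day 4 passed. The count was 1 with array medians centred, without a slide term and centred on the other miRNAs, 2 with only the groups compared, 8 with the total gene signal, 9 with the mean over spots and 9 with no presence filter, and 1 to 9 without each array. For 75 against 50 mg/kg/day 1 passed, as it did without each array, and 0 with the processed signal, the total gene signal and probes present on all arrays. The median of all names at 50 and 75 mg/kg/day moved to 0.14 and 0.17 with the total gene signal.

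The difference between the probes' changes at 75 mg/kg/day (-0.05) was 0.0211 with the miR-720 spots left out of the loess curves, and without each array ran from -0.16 to 0.0143, the latter without control 3, and was 1.92e-05 without control 2. That at 50 mg/kg/day ran from -0.23 to -0.06 and that between slides 3 and 1 from 0.14 to 0.21 without each array. Within-slide and exact tests gave no value for the counts or the slide differences, and fits without a fixed slide term gave none for the slide differences.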
